A study of Mus musculus with 12 samples.

Results

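The complement and coagulation factors form 2 linked plasma protease systems, and 45 genes that encode them were followed among the 52636 genes counted in each mouse liver. The genes were chosen by name, from lists of known factors and their inhibitors, and all 45 were found in the data. They were compared between 6 VDD-F1 and 6 VDS-F1 male mice of the C57Bl/6J strain at 16 weeks of age, with 1 liver library per mouse. The mothers of VDD-F1 mice ate a diet without vitamin D, with added calcium gluconate, before mating and through pregnancy, and the mothers of VDS-F1 mice ate a nutrient-matched diet with vitamin D. The fathers ate the control diet, and after weaning all offspring ate a vitamin D sufficient diet. Whether litter mates were among the mice is not given in the sources used here, so p-values measure the spread between these mice.

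Complement is a cascade that tags and lyses microbes. It starts through antibody (C1q, C1r and C1s), through sugar patterns (mannose-binding lectins and their proteases) or through the alternative route, and all routes meet at the cleavage of C3 and end in the membrane attack complex of C5 to C9. Coagulation is a parallel cascade that turns prothrombin into thrombin and fibrinogen into fibrin, and plasmin dissolves the clot. Hepatocytes make most of these plasma proteins, many of which rise in the acute phase response to inflammation, whereas C1q and properdin come mainly from macrophages and other myeloid cells.

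The libraries held between 14275793 and 20815066 fragments counted on genes. In VDS6, 11.1% of all fragments matched no annotated exon on the strand used for counting. The mean count of the 45 genes ran from 89.2 to 162230, so all passed the filter of a mean count of 12. VDD2, VDS1 and VDS2 stood apart from their groups in markers described below. The study recorded a liver weight for VDD4 to VDD6 and for VDS3 to VDS6, 7 mice, but gave none for VDD1 to VDD3, VDS1 and VDS2, and each result was also taken within these 2 sets. Hepatocyte markers were abundant in every mouse, with a summed level of 97283 to 129379 CPM (counts scaled to library size with edgeR's TMM factors) over 11 genes. In bulk tissue, fewer cells of a type and less RNA per cell cannot be told apart.

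The 45 genes took a large part of the liver transcriptome. Together they held 4.66 ± 0.363% of the counts in VDD-F1, against 4.55 ± 0.498% in VDS-F1 mice (n = 6 each). A two-sided exact permutation test gave p = 0.682, and the smallest p-value possible with 6 against 6 mice is 0.00216. In the mice with a recorded liver weight the share was 4.72% to 5.02% in the 3 VDD-F1 and 4.07% to 4.47% in the 4 VDS-F1 mice. In the others it was 4.04% to 4.68% in 3 VDD-F1 and 4.77% to 5.45% in 2 VDS-F1 mice. The diets thus did not overlap in either set and had opposite order, with exact two-sided permutation p-values of 0.0571 and 0.2, the smallest that these numbers of mice allow. Here and below, ± gives the SD over the 6 mice of a diet. Levels were compared between genes as RPKM, the CPM per kilobase of annotated exon. C3, the protein on which all complement routes meet, was the highest, with 1894 ± 346 RPKM in VDD-F1 against 1817 ± 171 in VDS-F1 mice. The alpha and gamma chains of fibrinogen followed, with means over all 12 mice of 1690 RPKM for Fga and 1629 for Fgg, which lie within the spread of C3. Vtn (vitronectin, a plasma adhesion protein that blocks the membrane attack complex) had 1337, Fgb 1119, Plg (plasminogen) 698 and Kng1 (kininogen) 573 RPKM. Of the 45 genes, 26 had a mean above 100 RPKM and 3 a mean under 10.

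The lowest levels belonged to 3 genes of the C3 convertases. Cfp (properdin, which stabilizes the C3 convertase) had a mean of 8.43 RPKM, C2 of 2.80 and Cfb (factor B) of 1.86. For Cfb, 79.5% of the exon bases lie on the same strand as a read-through gene model, and for C2 42.8%, and Klkb1 (plasma prekallikrein) shares 43.2% with another model. Fragments that fall in such shared bases are not counted for either gene, so the levels of Cfb, C2 and Klkb1 are underestimates. Their difference between the diets rests on the remaining exons.

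Between the diets the 45 genes differed little. None had an adjusted p-value under 0.05 in edgeR's quasi-likelihood test, where 0.0402% of all 12453 genes tested did, and the smallest adjusted p-value was 0.0855. The log2-fold changes of VDD-F1 against VDS-F1 ran from -0.44 for Cfp to 0.44 for Cfb. Every 95% interval lay between -0.94 and 0.87, so a difference of 1 on the log2 scale was outside the interval of each of the 45 genes. At an unadjusted p-value under 0.05 there were 7 of the 45 (15.6%), near the 15.8% of all genes. Higher in VDD-F1 were 2 (4.44%, against 9.55% of all genes) and lower were 5 (11.1%, against 6.29%). With the set of mice described above as a covariate, 1 was higher (2.22%, against 9.64%) and 8 were lower (17.8%, against 7.32%), and 32 of the 45 lay below 0 (71.1%, against 49.3%). Without VDS1 and VDS2, chosen after the data were seen, the balance turned, with 6 higher (13.3%, against 10.3%) and 3 lower (6.67%, against 7.1%). Over all 12 mice the median log2-fold change was -0.02, against 0.00 over all genes. The median SD of log2 CPM between mice of a group was 0.19 in each diet, below the 0.27 (VDD-F1) and 0.23 (VDS-F1) of all genes.

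**Figure D1:**
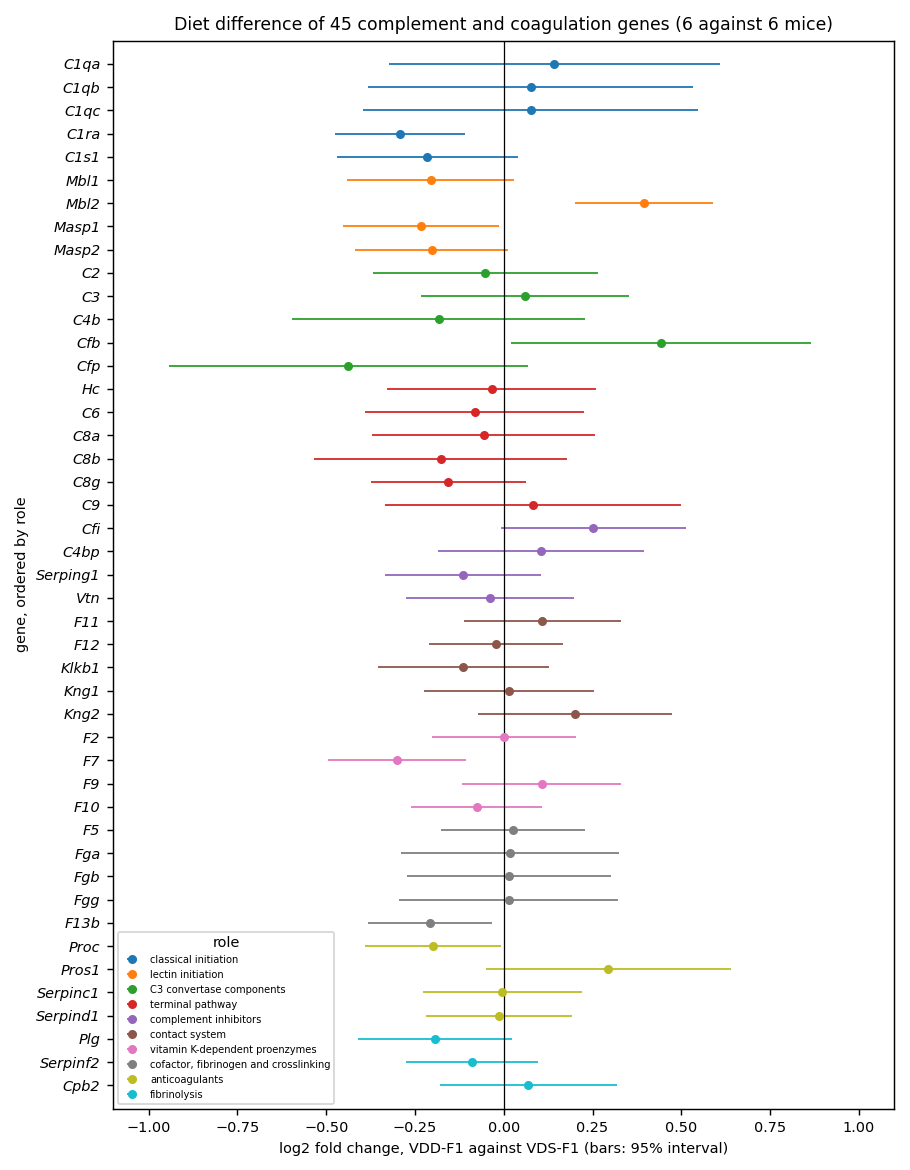
Log2-fold change of VDD-F1 against VDS-F1 (horizontal axis, 6 against 6 mice) for the 45 genes in order of role, with points for the edgeR estimate and bars for its 95% interval. All estimates lie between -0.44 and 0.44, and the bars of 38 genes cross 0.

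Among the initiators of the lectin pathway, Mbl2, a mannose-binding lectin that hepatocytes secrete, had the smallest p-value of the 45 genes. Mbl2 (ENSMUSG00000024863.5, chromosome 19, 30232942 to 30239687 in GRCm38) had 232 CPM in the lowest, 279 at the median and 304 in the highest VDD-F1 mouse. In VDS-F1 the lowest mouse had 186, the median was 206 and the highest 222 CPM. The groups did not overlap, which held for 2 of the 45 genes (4.44%) and for 1.18% of all genes. The log2-fold change of Mbl2 was 0.40 with a standard error of 0.09 and a 95% interval from 0.20 to 0.59 (edgeR's adjusted p = 0.0855). DESeq2's Wald test gave Mbl2 an adjusted p-value of 0.00261, and called 3 of the 45 genes (6.67%, against 4.05% of all genes). Voom with sample weights called 2 of the 45 (4.44%, against 4.74%), and at an unadjusted p-value under 0.05 it gave 12 (26.7%, against 22.8%).

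The other lectin pathway genes had lower means in VDD-F1. Masp1, a protease that rides on the lectins, had 140 ± 21.4 CPM in VDD-F1, against 164 ± 13.9 in VDS-F1. Its log2-fold change was -0.23 (unadjusted p = 0.0397 from edgeR, adjusted p = 0.289). Masp2, the protease that cleaves C4 and C2, had a log2-fold change of -0.20 and Mbl1, the second mannose-binding lectin of the mouse, of -0.21, and neither passed the unadjusted threshold.

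In the classical pathway, 1 of 5 genes, the protease C1ra, had an unadjusted p-value under 0.05. C1ra (ENSMUSG00000055172.10, chromosome 6, 124512405 to 124523443) had 203, 209 and 242 CPM in VDD-F1 against 241, 263 and 309 in VDS-F1 mice (lowest, median and highest). The ranges overlapped narrowly, since 1 VDS-F1 mouse, VDS4 at 240.5, lay below the top 2 VDD-F1 mice. C1ra thus had a log2-fold change of -0.29 ± 0.09 (estimate and standard error), with edgeR's adjusted p = 0.125 and DESeq2's adjusted p = 0.0218. C1s1, the protease that C1r activates, had a log2-fold change of -0.22 with an interval from -0.47 to 0.04.

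The 3 chains of C1q are neighbours on chromosome 4 and are macrophage products. C1qa had 40.3 ± 18.2 CPM in VDD-F1, against 36.6 ± 6.58 in VDS-F1, C1qb 38.4 ± 16.5 against 36.5 ± 7.41, and C1qc 43.8 ± 19.6 against 41.6 ± 8.02. Their log2-fold changes of 0.14, 0.08 and 0.08 were smaller than their standard errors of 0.21 to 0.22. VDD2 alone had 76.9, 71.9 and 82.9 CPM for the 3 chains, where the other VDD-F1 mice had 27.7 to 37.7, 29.4 to 35.0 and 29.4 to 42.7. Without VDD2 the log2-fold changes turned to -0.15, -0.20 and -0.21. The 10 Kupffer cell markers summed to 358 CPM in VDD2 and 140 to 290 in the other VDD-F1 mice. The 8 markers of monocytes and lipid-associated macrophages summed to 286 CPM in VDD2 and 57.6 to 134 in the others. Within the Kupffer list, VDD2 was the highest VDD-F1 mouse for Cd5l, Csf1r, Adgre1, Cd68 and Marco. For Clec4f, Vsig4, Timd4, Folr2 and Cd163, VDD1 was higher than VDD2. Among VDD-F1 mice, VDD2 also had the highest summed stellate (924 CPM), endothelial (358), cholangiocyte (48.1), lymphocyte (8.51) and platelet (5.01) markers.

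**Figure D2:**
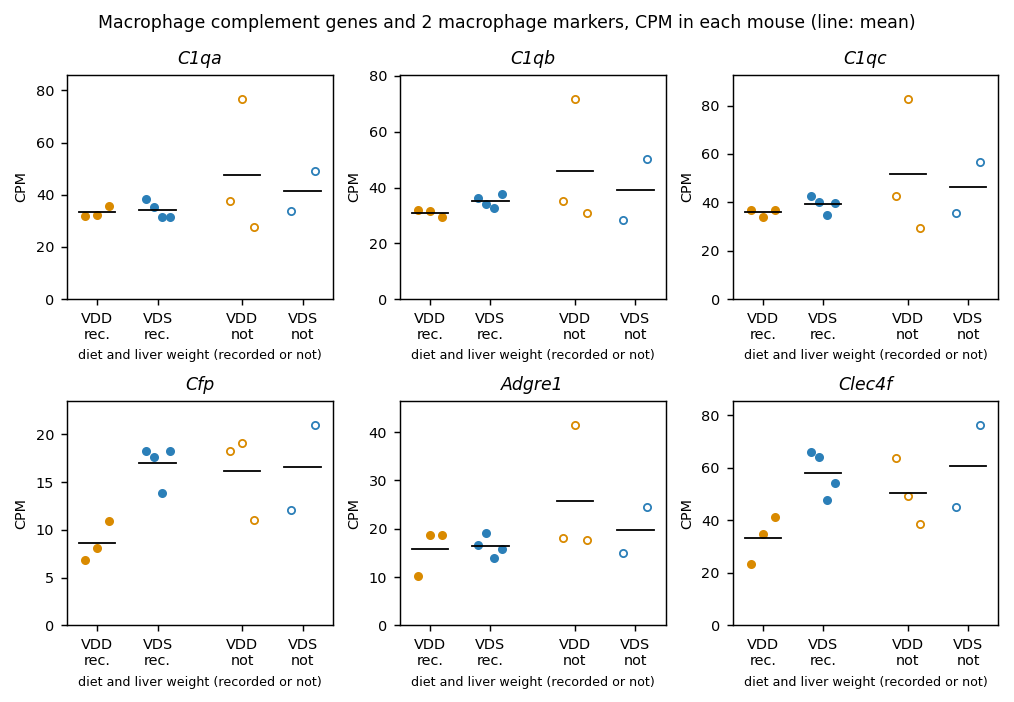
CPM (vertical axis, from 0) of the 3 C1q chains, Cfp and the macrophage markers Adgre1 and Clec4f in each mouse, by diet and by whether a liver weight was recorded (filled circles) or not (open circles), with lines at the means. VDD2 is the single high open VDD point of the C1q chains and of Adgre1, while Cfp is low in the 3 filled VDD mice.

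Of the C3 convertase components, Cfb and Cfp had the largest estimates and the widest errors. Cfb, the protease of the alternative pathway, had 6.05 ± 0.949 CPM in VDD-F1 against 4.44 ± 1.35 in VDS-F1, a log2-fold change of 0.44 (unadjusted p = 0.0417 from edgeR, adjusted p = 0.294). Cfp had 12.4 ± 5.16 against 16.9 ± 3.26 CPM, a log2-fold change of -0.44 with an interval from -0.94 to 0.07. Voom with sample weights gave Cfp a log2-fold change of -0.74 and called it (adjusted p = 0.0482). C3 itself had a log2-fold change of 0.06 (95% interval -0.23 to 0.35), C4b of -0.18 and C2 of -0.05.

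The terminal pathway builds the membrane attack complex. The 6 of its genes that were followed had log2-fold changes from -0.18 to 0.08, with none at an unadjusted p-value under 0.05. C7, a further gene of the complex outside this group, had a log2-fold change of 0.50 with a standard error of 0.46. Hc, the mouse gene for C5, had 1121 ± 206 CPM in VDD-F1 against 1148 ± 178 in VDS-F1, a log2-fold change of -0.03. Among the complement inhibitors, Cfi (factor I, which degrades C3b and C4b) had a log2-fold change of 0.25 (95% interval -0.01 to 0.51), C4bp of 0.11, Vtn of -0.04 and Serping1, the C1 inhibitor, of -0.12. The values of these genes within the 2 sets of mice are given below.

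Of F2, F7, F9 and F10, the vitamin K-dependent proenzymes that drive coagulation, only F7 had an unadjusted p-value under 0.05 (0.00495 from edgeR). Factor VII starts coagulation together with tissue factor. F7 (ENSMUSG00000031443.7, chromosome 8, 13026034 to 13035809) had 47.2, 59.7 and 67.4 CPM in VDD-F1 against 67.8, 70.8 and 80.9 in VDS-F1 mice (lowest, median and highest). The groups did not overlap, but the highest VDD-F1 mouse lay just under the lowest VDS-F1 mouse. Its log2-fold change of -0.30 had a 95% interval from -0.49 to -0.11 (edgeR's adjusted p = 0.133, DESeq2's adjusted p = 0.0447).

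The other proenzymes were close to equal. F2, prothrombin, had 1714 ± 149 against 1714 ± 134 CPM, a log2-fold change of 0.00 with a 95% interval from -0.20 to 0.20. F9 had a log2-fold change of 0.11 and F10 of -0.08. In the contact system, which starts clotting on charged surfaces, F11 had 0.11 (95% interval -0.11 to 0.33), F12 had -0.02, Klkb1 -0.11, Kng1 0.01 and Kng2 0.20.

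Fibrinogen is assembled from 3 chains whose genes lie side by side on chromosome 3, and they varied together. Fga (83026076 to 83033627) had 4242, 5183 and 6088 CPM in VDD-F1 against 4300, 4543 and 6927 in VDS-F1 mice (lowest, median and highest). Its log2-fold change was 0.02 (95% interval -0.29 to 0.32), that of Fgb (83040141 to 83049863) 0.01 and that of Fgg (83007724 to 83015049) 0.01. Across the 12 mice the log2 ratio of Fga to Fgb in RPKM ran from 0.50 to 0.72 (SD 0.06), and that of Fgg to Fgb from 0.39 to 0.59 (SD 0.05). By contrast, the chains of C8 did not keep a fixed ratio. The log2 ratio of C8a to C8g ran from 0.26 to 1.22 (SD 0.29) and that of C8b to C8g from -0.55 to 0.79 (SD 0.38).

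The sequences before the starts of the fibrinogen genes are shown because these genes moved together, with matches to TTGCNNAA, a form of the C/EBP site, in capitals on either strand. They are RefSeq sequences from GRCm38.p6, 5′ to 3′ on the strand of the gene. Fga lies at chr3:83025903-83026075 on the plus strand, Fgb at chr3:83049864-83050113 on the minus strand and Fgg at chr3:83007474-83007723 on the plus strand.
Fga: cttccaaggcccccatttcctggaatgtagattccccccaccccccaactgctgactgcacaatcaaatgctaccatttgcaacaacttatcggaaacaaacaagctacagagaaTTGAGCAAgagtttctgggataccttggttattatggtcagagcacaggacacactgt
Fgb: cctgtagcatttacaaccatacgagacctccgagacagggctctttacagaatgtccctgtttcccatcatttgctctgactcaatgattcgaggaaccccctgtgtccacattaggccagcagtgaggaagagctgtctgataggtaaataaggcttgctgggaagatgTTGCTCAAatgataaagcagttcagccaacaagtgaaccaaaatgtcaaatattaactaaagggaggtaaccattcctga
Fgg: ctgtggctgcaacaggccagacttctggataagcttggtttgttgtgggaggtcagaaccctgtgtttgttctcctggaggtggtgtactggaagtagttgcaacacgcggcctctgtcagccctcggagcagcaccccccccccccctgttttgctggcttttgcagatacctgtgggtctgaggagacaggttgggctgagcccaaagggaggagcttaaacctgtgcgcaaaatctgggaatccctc

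Fga and Fgb each held 1 match to TTGCNNAA in the 250 bases before the RefSeq start, and Fgg held none. For Fga the stretch next to that start is not printed because it falls inside the gene model of GENCODE. RefSeq promoters were matched for 35 of the 45 genes, with 37 promoters. Of these, 24.3% held TTGCNNAA, against 9.57% of all 32817 promoters. TTCNNNGAA, a STAT site, was in 16.2% against 7.01%, and CTGGGA, the core of interleukin-6 response elements, in 40.5% against 27%. GGTCA repeated directly after any 3 bases, the vitamin D receptor type of site, was in 0 of the 37 and in 0.067% of all promoters, and CAAAGTCCA, an HNF4 type repeat, in 0 and 0.384%. All motifs were searched on both strands, and a TTGCNNAA match may overlap a match of another motif.

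F13b, Proc and Plg had lower means in VDD-F1, though none passed the adjusted threshold. F13b, the carrier subunit of the factor that crosslinks fibrin, had 128 ± 13.6 against 147 ± 8.96 CPM, a log2-fold change of -0.21 (unadjusted p = 0.0232 from edgeR, adjusted p = 0.239). Proc, the anticoagulant protein C, had 378 ± 42.6 against 434 ± 21.6 CPM, a log2-fold change of -0.20 (unadjusted p = 0.0432, adjusted p = 0.298 from edgeR). Plg had 2417 ± 206 against 2763 ± 269 CPM, a log2-fold change of -0.19 with an interval from -0.41 to 0.02. Serpinc1, antithrombin, differed by 0.00 (95% interval -0.23 to 0.22), Serpind1, heparin cofactor II, by -0.01, and Serpinf2, the plasmin inhibitor, by -0.09. Pros1, protein S, had a log2-fold change of 0.29 (95% interval -0.05 to 0.64) and Cpb2, a carboxypeptidase that slows fibrinolysis, of 0.07. F5, the cofactor of factor Xa, had 0.02.

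**Figure D3:**
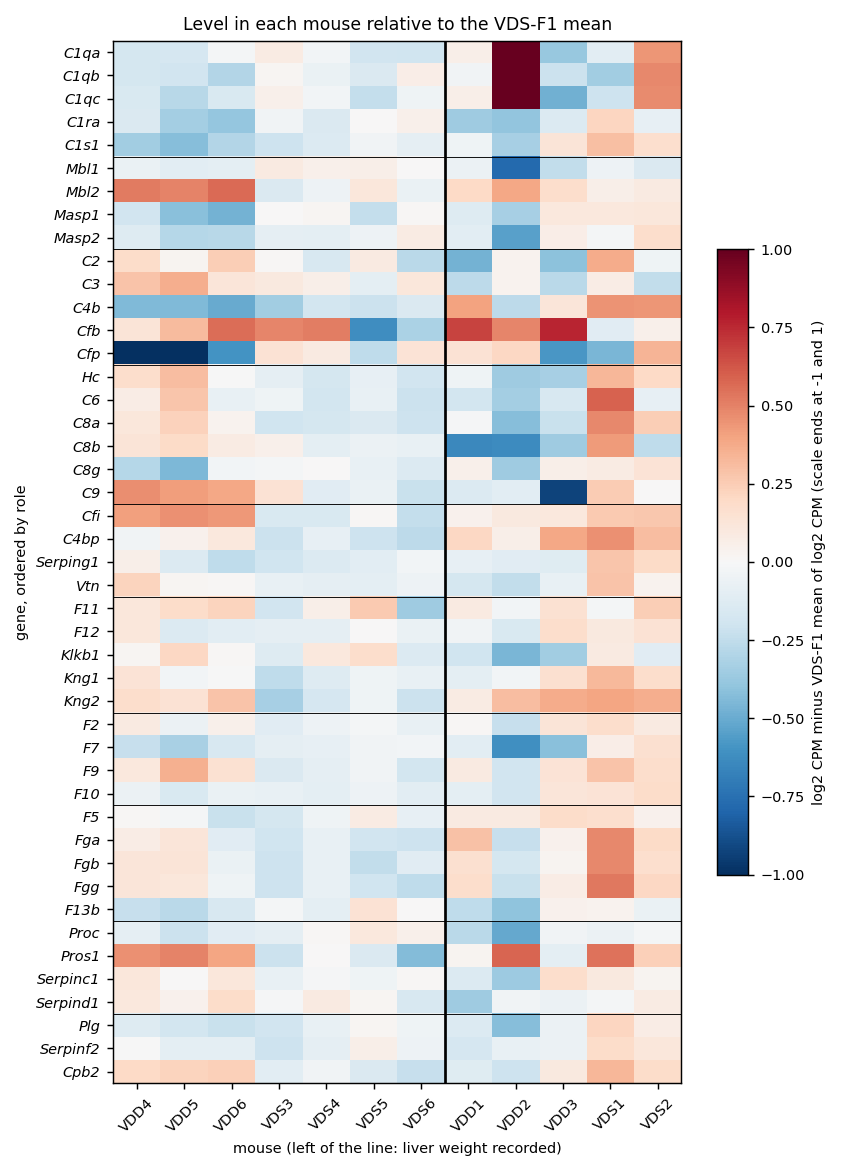
Level of each of the 45 genes (rows, in order of role, with lines between roles) in each mouse (columns, with a line between mice that had a recorded liver weight, left, and those that had none), as log2 CPM minus the VDS-F1 mean, with a colour scale from -1 to 1. In VDD2 the 3 C1q chains lie at or past the upper end of the scale, and VDS1 is above the VDS-F1 mean for most genes.

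The log2-fold change between the diets took opposite signs in the 2 sets of mice for 30 of the 45 genes (66.7%), against 42.6% of the 12195 genes tested in both. In the 7 mice with a recorded liver weight, 9 of the 45 (20%) had an adjusted p-value under 0.05 in edgeR's test, where 11% of all 12369 genes did. Higher in VDD-F1 were 8 (17.8%, against 5.87% of all genes) and lower was Cfp alone (2.22%, against 5.11%). At an unadjusted p-value under 0.05 there were 23 (51.1%, against 25.6%). In the other 5 mice none of 12541 genes was called by edgeR, 473 (3.77%) had an unadjusted p-value under 0.05, and among the 45 genes there were 5 of these, Cfb higher (2.22%, against 2.05% of all genes) and F7, Hc, C8a and C8b lower (8.89%, against 1.72%). There 39 of the 45 had a log2-fold change below 0 (86.7%, against 48.2% of all genes), whereas in the 7 mice 28 were above 0 (62.2%, against 51%). The median log2-fold change of the 45 was 0.11 in the 7 mice and -0.22 in the 5 mice, against 0.01 over all genes in each.

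**Figure D4:**
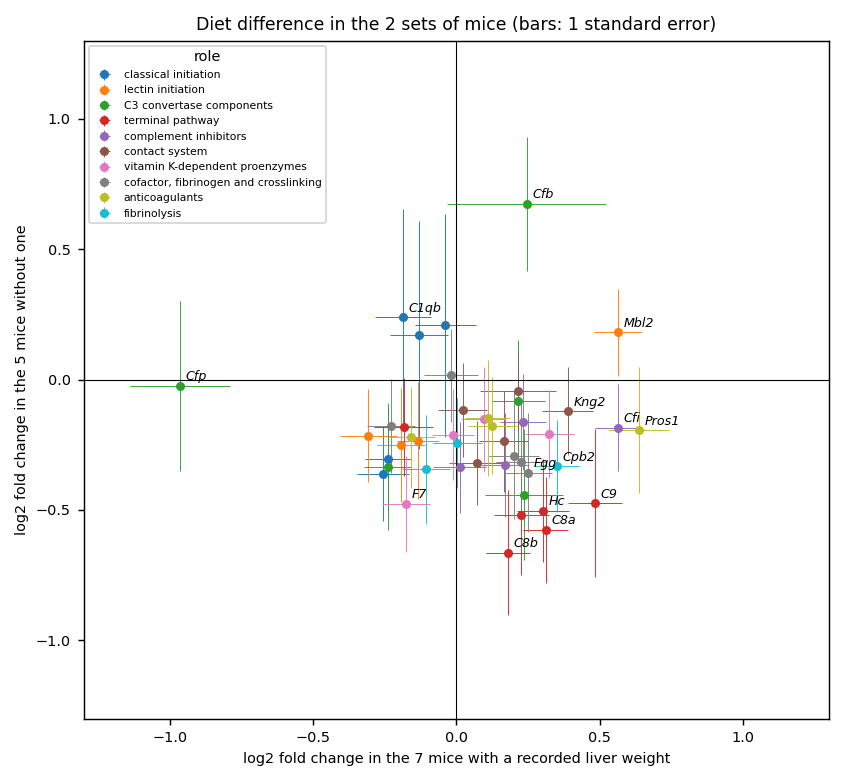
Log2-fold change of VDD-F1 against VDS-F1 in the 7 mice with a recorded liver weight (horizontal axis) and in the 5 mice without one (vertical axis) for the 45 genes, coloured by role, with bars of 1 standard error. Most genes right of 0 lie below 0 on the vertical axis, with C8a, C8b, Hc and C9 among the lowest, while Mbl2 and Cfb lie above 0 in both sets.

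The difference between the sets was tested as an interaction across all genes. It called 11 genes (0.0883%) and none of the 45, whose smallest adjusted p-value was 0.110. At an unadjusted p-value under 0.05 there were 21 of the 45 (46.7%), against 9.01% of all genes, and 20 of them had a lower diet difference in the mice without a recorded weight (44.4%, against 4.24%). Leaving out VDS1 lowered the 21 to 10, and leaving out VDD2 raised the number of the 45 called from 0 to 6. The number of all genes called moved strongly too, from 3 to 332 over the fits with 1 mouse left out. The median interaction of the 45 was -0.30 on the log2 scale, against 0.01 over all genes. In 11 of the 45 genes (24.4%) the diets did not overlap in either set and had opposite order, which held for 1.24% of all genes. DESeq2's Wald test called 5 of the 45 for this interaction (11.1%, against 1.11% of all genes), namely Hc, Cfi, C8b, C8a and Cpb2.

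The genes described next were chosen after their values were seen. Cfi had 758, 779 and 768 CPM in VDD4 to VDD6 and 512, 513, 573 and 483 in VDS3 to VDS6. In the other set it had 586, 608 and 612 CPM in VDD1 to VDD3 and 683 and 686 in VDS1 and VDS2. VDD-F1 was therefore higher without overlap in the first set, with a log2-fold change of 0.56 (adjusted p = 0.0013 from edgeR), and lower without overlap in the second, at -0.18 (adjusted p = 1). The interaction was -0.75 with a standard error of 0.15 (edgeR's adjusted p = 0.110).

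Of the 6 genes of the membrane attack complex that were followed, Hc, C8a, C8b and C9 had the same order without overlap in either set. C8a had 738, 797 and 698 CPM in VDD4 to VDD6, and 593, 604, 617 and 589 in VDS3 to VDS6. In the other mice it had 675, 506 and 584 CPM in VDD1 to VDD3 and 947 and 807 in VDS1 and VDS2. The log2-fold changes were 0.31 and -0.58, with an interaction of -0.89 (standard error 0.18, adjusted p = 0.114 from edgeR). Hc had log2-fold changes of 0.30 and -0.50 (interaction -0.80, standard error 0.18), C8b of 0.18 and -0.66 (interaction -0.84, standard error 0.22), and C9, the pore-forming subunit, of 0.48 and -0.47 (interaction -0.96, standard error 0.27). C6 had 0.23 and -0.52, with overlap between the diets in the 7 mice. Alone in the terminal pathway, C8g, which is a lipocalin and not a pore-forming protein, had -0.18 in both sets.

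The fibrinogen chains and several other coagulation genes also had opposite signs in the 2 sets. Fgb had 4532, 4569 and 3988 CPM in VDD4 to VDD6 and 3616, 3968, 3521 and 3853 in VDS3 to VDS6, which leaves the lowest VDD-F1 mouse just above the highest VDS-F1 mouse. In the other set Fgb had 4675, 3707 and 4249 CPM in VDD1 to VDD3 and 5812 and 4690 in VDS1 and VDS2. The fibrinogen log2-fold changes in the 2 sets were 0.20 and -0.29 for Fga, 0.22 and -0.32 for Fgb, and 0.25 and -0.36 for Fgg. Cpb2 had 0.35 and -0.33, F9 had 0.32 and -0.21, Kng2 had 0.39 and -0.12, and Pros1 had 0.64 and -0.19, an interaction of -0.83 (standard error 0.24). For F2 (0.10 and -0.15) and F5 (-0.02 and 0.02) the interaction was not at an unadjusted p-value under 0.05.

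Some genes kept their sign in both sets. Mbl2 had 294, 289 and 304 CPM in VDD4 to VDD6, all above the 186 to 222 of VDS3 to VDS6. Its log2-fold changes were 0.56 (adjusted p = 0.00142 from edgeR) and 0.18 (standard error 0.17). The interaction of Mbl2 was -0.38 (unadjusted p = 0.0254, adjusted p = 0.481 from edgeR), a smaller diet difference in the second set. F7 had -0.18 and -0.48, C1ra -0.26 and -0.36, Masp1 -0.31 and -0.22, F13b -0.23 and -0.18, Proc -0.16 and -0.22, and Plg -0.11 and -0.34. Cfb had 0.24 and 0.67. Cfp had 6.87, 8.15 and 10.96 CPM in VDD4 to VDD6 and 18.3, 17.6, 13.9 and 18.2 in VDS3 to VDS6. Its log2-fold change there was -0.96 (adjusted p = 0.00459 from edgeR). In the other mice it was -0.02 with a standard error of 0.33, which gives no direction. The interaction of Cfp was 0.94 (unadjusted p = 0.0237, adjusted p = 0.469 from edgeR).

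**Figure D5:**
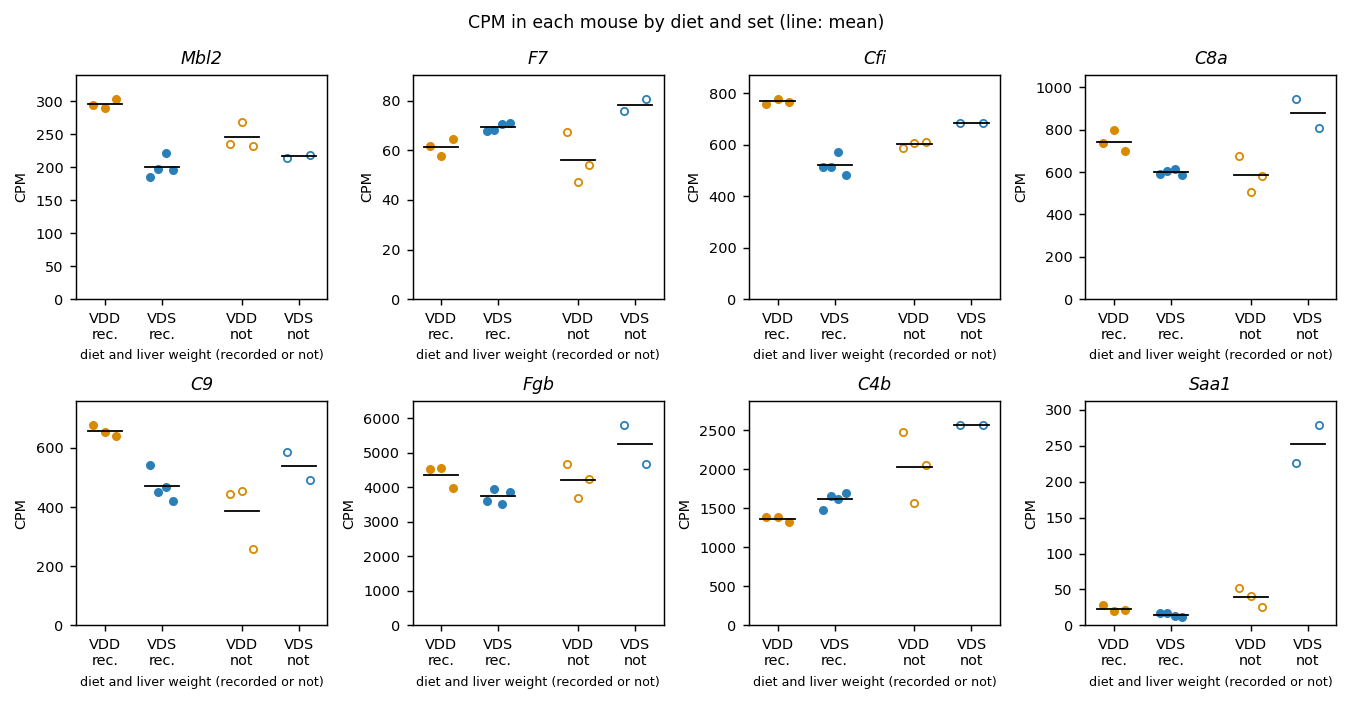
CPM (vertical axis, from 0) of 7 complement and coagulation genes and of Saa1 in each mouse, by diet and by whether a liver weight was recorded (filled circles) or not (open circles), with lines at the means. Cfi, C8a, C9 and Fgb are higher in VDD among filled and lower among open circles, and Saa1 is high in VDS1 and VDS2 alone, at 225 and 279 CPM.

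VDS1 and VDS2, the only VDS-F1 mice without a recorded liver weight, were also high in acute phase genes. Saa1, serum amyloid A, had 225 and 279 CPM in VDS1 and VDS2, against 12.2 to 17.5 in VDS3 to VDS6 and 20.8 to 51.8 in the VDD-F1 mice. The summed level of 12 acute phase genes, of which none was at 0, was 12773 and 13282 CPM in VDS1 and VDS2, against 6887 to 7975 in VDS3 to VDS6 and 9556 to 11626 in VDD-F1. In the 7 mice with a recorded weight 6 of the 12 genes, Saa1, Saa2, Hpx, Apcs, Itih3 and Fgl1, were called higher in VDD-F1 by edgeR and none lower, beside the 8 complement and coagulation genes called higher there. Of these 12 genes, 9 had a lower diet difference in the set without a recorded weight at an unadjusted p-value under 0.05, and Saa1 and Saa2 were called by the interaction test. C4b, a complement gene of the acute phase, had 2569 and 2562 CPM in VDS1 and VDS2, 1478 to 1699 in VDS3 to VDS6, 2481, 1572 and 2051 in VDD1 to VDD3, and 1324 to 1389 in VDD4 to VDD6. The part of the acute phase state in the opposite signs was not tested, and with these 2 mice as the only VDS-F1 mice of their set, the mice and the set cannot be told apart. Without both mice none of the 45 genes and 0.499% of all genes were called, 9 of the 45 (20%, against 17.4% of all genes) had an unadjusted p-value under 0.05, and 31 of the 45 (68.9%, against 52.1%) were above 0, with a median of 0.07.

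Further genes of both systems, outside the 45, were taken from fixed lists. For comparison, at an unadjusted p-value under 0.05 edgeR had 9.55% of all genes higher and 6.29% lower over the 12 mice. DESeq2 called 4.05% of all genes over the 12 mice, and edgeR called 11% in the 7 mice with a recorded weight. Of 28 other complement genes, 24 were tested. Of these edgeR called none, with 3 higher and 5 lower at an unadjusted p-value under 0.05, while DESeq2 called 3, Itgax (adjusted p = 0.00256), Cd93 (0.00963) and Fcna (0.0226). In the 7 mice with a recorded weight edgeR called 6, 3 higher and 3 lower, among them Colec10, a collectin, at -1.85 (adjusted p = 6.51e-05). Over all 12 mice the smallest p-values belonged to Itgax, a chain of complement receptor 4 on myeloid cells (log2-fold change 2.33, adjusted p = 0.0918 from edgeR), Cd93, once described as a C1q receptor (0.81, adjusted p = 0.0947), Fcna, a ficolin of the lectin pathway (-0.78, adjusted p = 0.113), and Colec12, a scavenger lectin (-0.34, adjusted p = 0.181). Among 29 other coagulation genes, 22 were tested. Of these edgeR called none, with 5 higher and 3 lower at an unadjusted p-value under 0.05, and in the 7 mice it called 3, all higher. DESeq2 called 3, Gas6 (adjusted p = 0.0350), Ggcx (0.0424) and Plau (0.0460). By edgeR, Gas6, a vitamin K-dependent growth factor, had a log2-fold change of 0.63 (adjusted p = 0.122), Ggcx, the carboxylase that vitamin K-dependent factors need, -0.26 (adjusted p = 0.134), Plau, urokinase, 1.24 (adjusted p = 0.137) and Thbs1, thrombospondin, 1.16 (adjusted p = 0.192). Fcnb was at 0 in every mouse.

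Markers of several cell types moved beside these results, and every count of higher or lower genes over the 12 mice is at an unadjusted p-value under 0.05. Of all genes, 9.55% were higher and 6.29% lower at that threshold. In the 7 mice with a recorded weight edgeR called 5.87% of all genes higher and 5.11% lower. The hepatocyte markers summed to 117948 to 121076 CPM in VDD4 to VDD6 and 97283 to 106349 in VDS3 to VDS6, without overlap. In the other set they summed to 109451 to 129379 in VDD1 to VDD3 and 112628 and 116523 in VDS2 and VDS1. Most of each sum was Alb, which had 74258 to 78461 CPM in VDD4 to VDD6 and 55809 to 61812 in VDS3 to VDS6. In the 7 mice edgeR called 3 of the 11 higher, Alb (albumin, 0.36), Ahsg (0.34) and Trf (transferrin, 0.32), and 2 lower, Apoa2 (-0.48) and Hnf4a (-0.46). Of the rest, Ttr and Apoa1 lay above 0 there, and Apob, Asgr1, Asgr2 and Cps1 below 0. All 8 markers of monocytes and lipid-associated macrophages were higher in VDD-F1 (median log2-fold change 1.78), with summed levels of 57.6 to 286 CPM in VDD-F1 and 49.6 to 81.7 in VDS-F1. Of 10 Kupffer cell markers, 4 were lower and none higher, with summed levels of 140 to 358 CPM in VDD-F1 and 202 to 378 in VDS-F1. In the 7 mice where Cfp was lower, 6 of the 10 Kupffer markers were called lower and none higher. In the same mice all 7 tested markers of monocytes and lipid-associated macrophages were called higher. The C1q chains had -0.04 (C1qa), -0.19 (C1qb) and -0.13 (C1qc) there, and none was called. Of 8 stellate cell markers, 4 were higher and none lower, with summed levels of 314 to 924 CPM in VDD-F1 and 297 to 468 in VDS-F1. In the 7 mice 4 of them were called higher, led by the collagens Col1a1 (2.67) and Col3a1 (2.17). Of 4 cholangiocyte markers 2 were higher (14.6 to 48.1 CPM in VDD-F1 and 14.8 to 26.6 in VDS-F1), and of 8 endothelial markers 1 was higher and 2 were lower (286 to 358 and 273 to 408 CPM). Lymphocyte markers and those of megakaryocytes and platelets summed to less than 10 CPM in every mouse. Of 10 genes of liver transcription factors and interleukin-6 signalling, edgeR called none and DESeq2 1 over the 12 mice. There Hnf4a had -0.29 (adjusted p = 0.301 from edgeR) and Socs3 0.82 (adjusted p = 0.233 from edgeR). In the 7 mice edgeR called 4 of the 10 lower and none higher. Hnf4a had -0.46 in the 7 mice and 0.07 in the 5 mice, and Socs3 had 0.10 and 1.23. The part of all these markers and genes in the differences of the 45 genes was not tested.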

How the data were processed

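After adapter trimming, the authors mapped the reads with STAR to mm10 (GRCm38, GENCODE M15) and deposited its unnormalized fragment counts per gene and mouse, in an unstranded and 2 stranded columns. The column for the reverse strand was taken, because the paper names no column and this one held 92.7% to 95.8% of the stranded fragments. STAR leaves out fragments in several places or shared between same-strand genes. Symbols and positions came from GENCODE M21 (52489 of 52636 genes matched), and promoters from RefSeq (GRCm38.p6). Genes averaging 12 or more counts were fitted with edgeR 4.0.16 in R 4.3.3 (TMM, legacy quasi-likelihood test, Benjamini-Hochberg adjustment, call at an adjusted p-value under 0.05), where the paper names DESeq2. The method was tested on simulated data. The interaction of diet and set was the log2-fold change without minus with a recorded liver weight. The set was read from the study's picture of the livers.

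Alternatives were DESeq2 1.42.0, voom with quality weights in limma 3.58.1, other scalings, filters and strand, a set term, fits within 1 set, fits without 1 mouse and a block on the replicate number. A named gene counted as reversed where both log2-fold changes exceeded their standard errors with opposite signs. Genes given in full had an unadjusted p-value under 0.05 or were chosen by name (the C1q chains, C3, Hc, Cfb, F2, F7, F11, fibrinogen, Serpinc1, Plg), and up to 4 genes per further list had the smallest p-values, while others were chosen after their values were seen. A gene of the list of liver transcription factors is not reported here. The 45 genes and the lists were chosen with earlier results of these data known. Exon length sums all annotated exons, so RPKM understates genes with rarely used exons. Figures were drawn with matplotlib 3.10.9 in Python 3.11.15.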

Additional observations from a re-analysis of the deposited data

Results flagged for a closer look

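In 90 groups of 6 mice (45 genes in 2 diets), 8 values lay far from the others of their group by Dixon's criterion, where chance gives about 1 in 20 groups. VDD2 was far above the other VDD-F1 mice for C1qa (76.9 CPM, others 27.7 to 37.7), C1qb (71.9, others 29.4 to 35.0) and C1qc (82.9, others 29.4 to 42.7). It was far below them for Mbl1 (77.3 CPM, others 111 to 127). VDS2 was far above the other VDS-F1 mice for C1qc (56.8 CPM, others 34.8 to 42.5). VDS1 was far above them for C6 (408 CPM, others 234 to 263) and for Vtn (3342 CPM, others 2553 to 2800), and VDS5 was far below them for Masp1 (139 CPM, others 164 to 177).

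Outside the 45 genes, the diet difference of Saa1 and Saa2 differed between the 2 sets of mice in the interaction test. The interaction, taken as those lacking a recorded liver weight minus the others, was -3.30 for Saa1 and -3.22 for Saa2 on the log2 scale (adjusted p = 0.00151 each from edgeR). Saa1 had a log2-fold change of 0.63 where a weight was recorded and of -2.67 where none was.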

How the results depend on the processing

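The number of all genes called for the diet difference (5) was 504 with DESeq2, 590 with voom, 85 without the filter, 28 with the set as a covariate, 1358 in the 7 mice and 0 in the 5 mice, 62 without VDS1 and VDS2, and 0 to 420 with 1 mouse left out (420 without VDD1). Of the 45 genes, the number called (0) was 3 with DESeq2, 2 with voom (Mbl2 and Cfp), 9 in the 7 mice, and 0 to 1 with 1 mouse left out, where Mbl2 was called without VDD1 or VDD3. At an unadjusted p-value under 0.05 there were 12 with voom, 23 in the 7 mice and 4 to 11 with 1 mouse left out. The median log2-fold change was 0.109 in the 7 mice, -0.221 in the 5 mice and -0.0483 to 0.0328 with 1 mouse left out.

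For the interaction, all genes called (11) were 138 with DESeq2, 62 with voom, 368 without the filter and 3 to 332 with 1 mouse left out. Of the 45 genes, 5 were called with DESeq2, 3 with voom, 5 without the filter and 0 to 6 with 1 mouse left out, the 6 without VDD2. At an unadjusted p-value under 0.05 there were 10 to 21, with 10 without VDS1, and the median was -0.308 to -0.264. With the replicate block, 19 genes were called for diet and 2 for the interaction. The numbers did not pair the mice (correlations of deviations -0.0762 to 0.103), and the block called none of the 45. Of the 19 named genes, 9 had an estimate above its standard error, and none of these reversed over 24 alternatives. The other 10, with estimates below their standard errors, could not be judged so. Among these, Hc, Fga, Fgb and Fgg had opposite signs beyond their standard errors in the 2 sets. Hc had 0.301 (standard error 0.0903) in the 7 mice and -0.503 (0.197) in the 5 mice. In the same order Fga had 0.200 (0.0876) and -0.292 (0.243), Fgb 0.224 (0.0876) and -0.318 (0.223), and Fgg 0.249 (0.0851) and -0.357 (0.229). For the 19 genes, 7 fits passed the threshold that the reported fit missed, 5 for Mbl2 and 1 each for C1ra and F7. The causes were not tested.

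Scaling by library totals moved the median of all genes by 0.0461. The lowest mean counts were those of Cfb (89.2), C2 (186) and Cfp (246), while the largest standard errors were those of Cfp (0.24) and the C1q chains (0.21 to 0.22).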
